A study of Homo sapiens with 13 samples.

Results

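The results below concern the 4 arrays of KMS12 series 1332, a single array each at days 0, 3, 5 and 7 of doxycycline, out of 13 arrays in the study. They were chosen by their labels alone: cell line KMS12, series 1332 (a separate series labelled 1332b was kept apart), in time order. KMS12 is a human line of multiple myeloma, a cancer of plasma cells. On each array, RNA from KMS12 cells carrying an IRF4 hairpin (shi_1332) was labelled with Cy5 and RNA from KMS12 cells carrying a control hairpin against luciferase (shluc) with Cy3. At day 0 both cultures were untreated, and at days 3, 5 and 7 both had received 20 ng/ml doxycycline, which switches the hairpin on. The other 9 arrays cover KMS12 series 1332b (days 0, 2 and 4), KMS12 series 2046 (days 0, 2 and 4) and 3 arrays of the lines H929 and SKMM1 at day 4. The labels do not say whether the transduced cells were a clone or a pool, nor whether the 4 arrays came from separate cultures. With 1 array a day there is no replicate error, so every difference below is a description of these 4 hybridisations.

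IRF4 is a transcription factor of the interferon regulatory factor family that plasma cells need for their differentiation and that myeloma cells depend on for survival. It is known to act with partners at genes of plasma cell identity, including PRDM1, and in myeloma it is tied to MYC. A hairpin against it is processed into a short RNA that directs degradation of the IRF4 transcript.

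The value used is the log2 ratio of IRF4 hairpin over control hairpin, centred on each array's median, with features (spotted cDNAs) of a gene averaged; "ratio" means this value on 1 array, and "difference" means an induced day's ratio minus the day 0 ratio. All 3 differences share the day 0 array, so an unusual value there enters all of them. A ratio was available on all 4 arrays for 5199 features, which gave 3662 units: 2219 named genes and 1443 features without a single gene symbol. Features measured per array of the series ranged from 7140 at day 3 to 8318 at day 0. Without centring, the median of all units would lie lower by 0.15 at day 3, 0.14 at day 5 and 0.17 at day 7 on the log2 scale relative to day 0, so all differences are relative to the median feature. The 9 plasma cell markers listed for the check of cell type, IRF4 among them, all had values on the 4 arrays, but ratios do not give levels, so the labelled cell type could not be checked by how strongly they were expressed.

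IRF4 was below its day 0 ratio at all 3 induced days, lowest at day 3. Its ratio, the mean of 3 features, was 0.27 at day 0, -1.19 at day 3, -0.63 at day 5 and -0.69 at day 7. As a share of the control culture this was 120.5% before induction and 43.8%, 64.6% and 61.8% at days 3, 5 and 7. The differences from day 0 were -1.46, -0.90 and -0.96, so the transcript was 2.75-fold lower at day 3 and 1.95-fold lower at day 7. Another IRF4 feature, with no value at days 5 and 7, was left out. Each of the 3 features was lower at each induced day, between -1.67 and -1.29 at day 3, between -1.10 and -0.62 at day 5 and between -1.07 and -0.90 at day 7. The IRF4 difference was -1.88 at day 2 and -0.91 at day 4 of series 1332b, and -1.12 at day 2 and -0.82 at day 4 of series 2046, each against the day 0 array of its own series. In all 3 KMS12 series the earliest induced array thus had the lowest IRF4 ratio.

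**Figure D1:**
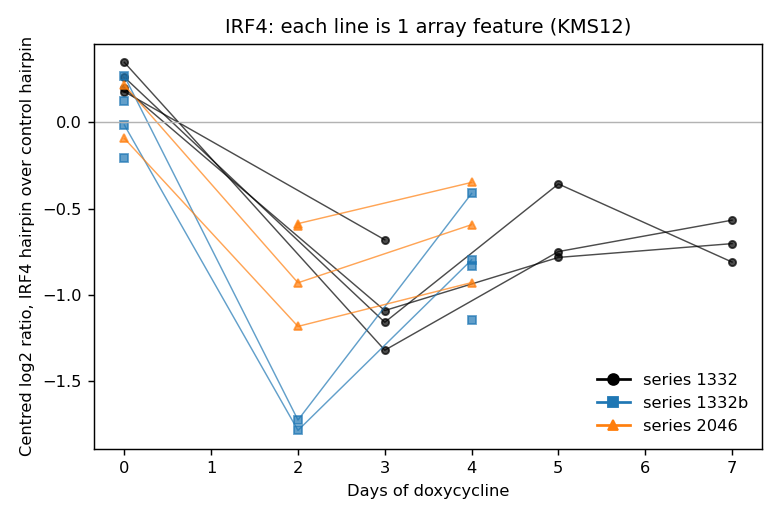
Centred log2 ratio of IRF4 (y axis) against days of doxycycline (x axis) in the 3 KMS12 series, 1 line for each array feature, with points left unjoined where a neighbouring array has no value. In series 1332 (black) the features averaged in the text run from near 0.27 at day 0 to about -1.19 at day 3 and stay below day 0 at days 5 and 7.

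Counting units that differed from day 0 by at least 1 on the log2 scale (2-fold), day 3 stood apart. At day 3, 434 units (11.9%) were lower and 267 (7.29%) were higher. At day 5 the lower units numbered 81 (2.21%) and the higher units 216 (5.9%), and at day 7 94 (2.57%) were lower and 241 (6.58%) were higher. The balance of directions depends on the centring and on the sign of the day 0 array: with values as deposited the counts were 528 lower and 196 higher at day 3, 140 and 151 at day 5, and 183 and 160 at day 7. With the sign of day 0 turned, they were 471 and 135, 239 and 122, and 321 and 209. As a measure of what arrays without induction differ by, uninduced series 1332b against uninduced series 1332 passed the same size in 177 of 3633 units (4.87%), and uninduced series 2046 against uninduced series 1332 in 119 of 3316 (3.59%). In either direction the share of units was 19.1% at day 3, 8.11% at day 5 and 9.15% at day 7. The day 3 array also had the widest spread of the 4 arrays. The standard deviation of its centred ratios was 0.69, against 0.43, 0.41 and 0.50 at days 0, 5 and 7. How far the counts follow from this spread was not tested. The largest difference just outside the size of 1 was 0.9997 at day 3, 0.998 at day 5 and 0.999 at day 7, and the smallest inside was 1 at each day.

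The 4 arrays were not closely alike before subtraction. As deposited, the day 0 array had a correlation across features of -0.13 with day 3, near 0 with day 5 and 0.05 with day 7, while days 3 and 5 gave 0.42, days 5 and 7 gave 0.47, and days 3 and 7 gave 0.04. The day 0 array correlated at 0.51 with the uninduced array of series 2046 and at 0.11 with that of series 1332b. The labels list the IRF4 hairpin as channel 2 on the day 0 array of series 1332 and on all arrays of series 2046, H929 and SKMM1 included. They list it as channel 1 on the induced arrays of series 1332 and on all arrays of 1332b, while the dye is Cy5 throughout. In KMS12, IRF4 was below its day 0 ratio on the induced arrays of series 2046, as on those of 1332 and 1332b. Features are not independent replicates, and these coefficients describe the arrays only.

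Courses were sorted into 4 kinds. A monotonic course has its 4 ratios in strict order over the days and ends at least 1 from day 0; a sustained course is at least 1 from day 0, same sign, at all 3 induced days; a transient course is at least 1 away at day 3 or day 5 and within 0.5 of day 0 at day 7; a late course is at least 1 away at day 7 and within 0.5 at days 3 and 5. A unit can be in more than one kind. Transient lower courses were the most frequent, with 304 units (8.3%, 198 named genes), against 97 transient higher (2.65%). Monotonic courses numbered 65 higher (1.77%) and 31 lower (0.847%), sustained courses 90 higher (2.46%) and 11 lower (0.3%), and late courses 20 higher (0.546%) and 22 lower (0.601%). Monotonic courses numbered 43 higher and 66 lower without centring, and 58 higher and 141 lower with the sign of day 0 turned. Sustained courses numbered 60 higher and 27 lower without centring, and 27 higher and 85 lower with that sign turned.

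**Figure D2:**
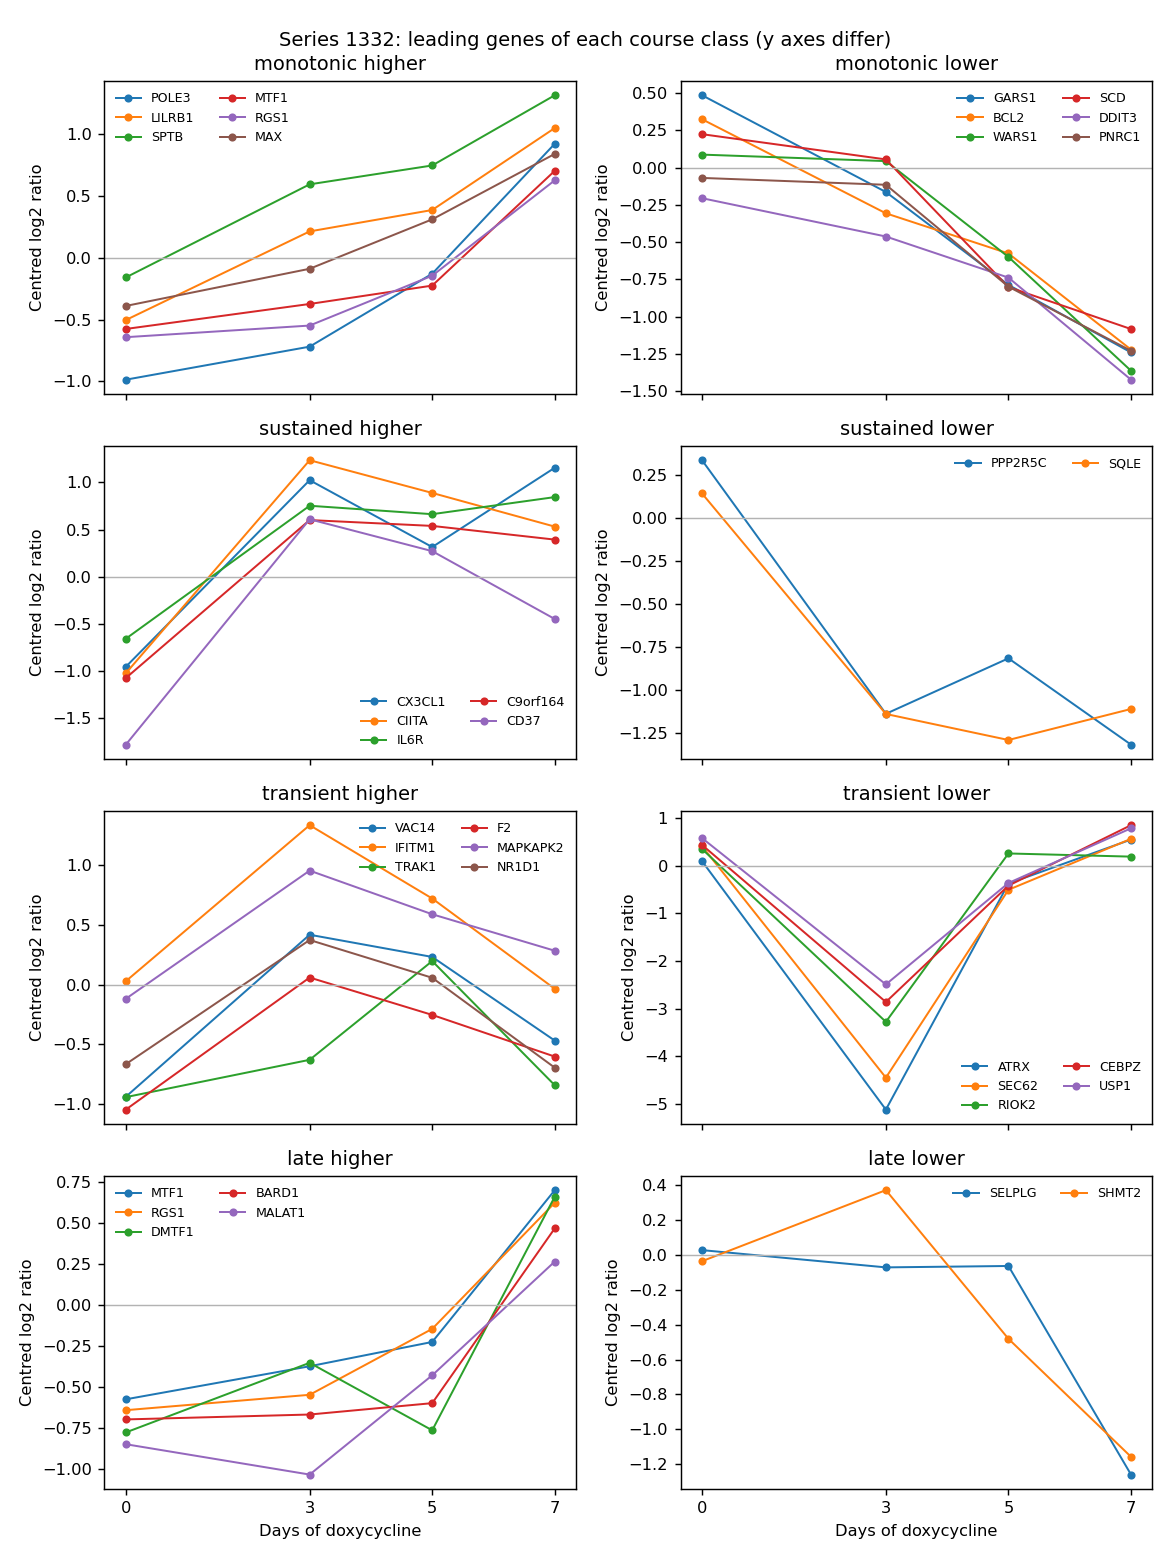
Centred log2 ratio (y axis, scale differing by panel) of the leading genes of each course kind against days of doxycycline (x axis), 1 point for each array. The monotonic lower genes end between -1.42 and -1.08 at day 7, and the transient lower genes dip at day 3 and return by day 7.

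A linear trend over the 4 days was tested with limma, whose error here is the departure from a straight line with 2 residual degrees of freedom. Such an error holds no variation between cultures or repeat arrays. The p-values of this paragraph therefore do not measure how far a repeat of the course would differ. With limma, 0 of 3662 units passed an adjusted p of 0.05, the smallest adjusted p being 0.982. At an unadjusted p under 0.05 in limma there were 174 units, 43 falling and 131 rising, where 183 would come from a uniform p. Fitted over the induced arrays of days 3, 5 and 7 alone, with 1 residual degree of freedom, limma passed 210 of 3662 units at an adjusted p of 0.05, of which 172 rose and 38 fell from day 3 to day 7 and the smallest adjusted p was 0.0156.

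The courses that went down in order over the 4 arrays included genes of the amino acid response and lipid synthesis. ATF4 is the transcription factor that raises aminoacyl-tRNA synthetases, amino acid transporters and serine and one-carbon enzymes when amino acids run short or when the endoplasmic reticulum is stressed. Sterol and fatty acid synthesis is raised by SREBP factors, which INSIG1 holds back in the endoplasmic reticulum. GARS1, the glycyl-tRNA synthetase, had ratios of 0.49, -0.16, -0.79 and -1.24 at days 0, 3, 5 and 7. It ended 3.31-fold below day 0 (difference -1.73), and its 2 features were at -1.55 and -1.90. WARS1, the tryptophanyl-tRNA synthetase, had ratios of 0.09, 0.04, -0.60 and -1.36, a difference of -1.45 at day 7. Both synthetases thus had their lowest value on the last array, WARS1 with day 3 close to day 0.

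DDIT3, a transcription factor of the stress response, had ratios of -0.20, -0.46, -0.74 and -1.42 over its 5 features. BCL2, the anti-apoptotic protein, had ratios of 0.33, -0.31, -0.58 and -1.22, a day 7 difference of -1.55, and its 4 features lay between -1.88 and -1.27. At day 3 these features disagreed, from -1.42 to 0.16 from day 0, so the strict order is that of their mean. SCD, the desaturase that makes monounsaturated fatty acids, had ratios of 0.23, 0.06, -0.80 and -1.08. Its day 3 mean lay close to day 0, but its features disagreed there, from -0.82 to 0.69 from day 0. PNRC1, a nuclear receptor coactivator, had ratios of -0.07, -0.11, -0.80 and -1.23. The remaining monotonic lower genes included ENO3 and SOCS5, each with 2 features, at -1.03 and -1.11 on day 7. The 6 genes described one by one shared a day 5 and day 7 lower than day 0, whereas their day 3 differences ranged from -0.65 in GARS1 to -0.04 in WARS1. In the separate series, GARS1 was -0.40 at day 2 and -0.46 at day 4 of 1332b and -0.49 and -0.39 at days 2 and 4 of 2046, and BCL2 was -1.08, -0.50, -0.49 and -0.32 on the same 4 arrays. DDIT3 was -0.13 and 0.30 in 1332b and 0.02 and 0.34 in 2046.

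Among the 20 measured genes of the ATF4 list, 10 were at least 1 below day 0 at day 7, 5 at day 5 and 2 at day 3, and 19 of 20 were below day 0 at day 7. Over all 2219 named genes, 2.34% were at least 1 below day 0 at day 7, 2.12% at day 5 and 12.6% at day 3, and 45% were below day 0 at day 7. The list's share at day 3 (10%) was thus below that of all named genes. The list's median difference was -0.30 at day 3, -0.37 at day 5 and -0.95 at day 7, against 0.02, 0.05 and 0.06 over all named genes. ATF4 itself, over 5 features, had ratios of 0.23, -0.46, -1.18 and -1.18. AARS1, the alanyl-tRNA synthetase, had ratios of 0.21, -0.08, -1.12 and -1.18 from 1 feature, and the asparaginyl-tRNA synthetase NARS1 had 0.46, -1.39, -0.58 and -0.56. Among transporters, SLC7A5 had ratios of 0.27, -0.03, -0.82 and -0.80, and SLC1A4 had 0.17, 0.84, 0.19 and -0.84. SHMT2, the mitochondrial serine hydroxymethyltransferase, was in the late lower group with ratios of -0.04, 0.37, -0.48 and -1.16 over 5 features. ASNS, the asparagine synthetase that is a standard ATF4 target, lay close to day 0 at day 7 (difference -0.04), and CEBPB was the only list member above it (0.38). The list's median in the shorter series was -0.02 and -0.16 at days 2 and 4 of 1332b and -0.42 and -0.37 at days 2 and 4 of 2046.

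ATF4 is known to bind a composite element with C/EBP factors. The 250 bases upstream of each start were searched for this element, written TGATGNAA, on both strands, in RefSeq promoters of GRCh38.p14. A match was found in 3 of the 17 ATF4 list genes with a promoter (17.6%), in 2 of 16 monotonic lower genes (12.5%), in 30 of 1850 measured named genes (1.62%) and in 870 of all 27305 promoters (3.19%). The 3 list genes are shown because they carry the match and ended at different day 7 differences, -1.39 for AARS1, -0.54 for IARS1 and -0.04 for ASNS. The match is in capitals.
AARS1: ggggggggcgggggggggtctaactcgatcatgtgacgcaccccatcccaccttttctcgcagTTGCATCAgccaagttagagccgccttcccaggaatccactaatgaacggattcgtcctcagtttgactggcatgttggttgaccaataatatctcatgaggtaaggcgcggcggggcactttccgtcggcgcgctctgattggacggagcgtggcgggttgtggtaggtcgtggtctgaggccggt
IARS1: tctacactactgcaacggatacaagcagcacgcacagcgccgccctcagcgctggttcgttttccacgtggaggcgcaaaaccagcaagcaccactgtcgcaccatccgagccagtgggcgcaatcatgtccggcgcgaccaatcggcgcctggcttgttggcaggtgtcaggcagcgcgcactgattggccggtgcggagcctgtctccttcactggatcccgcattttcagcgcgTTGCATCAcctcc
ASNS: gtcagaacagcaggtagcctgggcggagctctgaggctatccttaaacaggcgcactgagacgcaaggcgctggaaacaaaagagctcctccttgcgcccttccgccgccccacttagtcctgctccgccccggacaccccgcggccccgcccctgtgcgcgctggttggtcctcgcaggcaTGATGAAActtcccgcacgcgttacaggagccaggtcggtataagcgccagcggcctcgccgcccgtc
The AARS1 stretch is chr16:70289507-70289756, the IARS1 stretch chr9:92293698-92293947 and the ASNS stretch chr7:97872409-97872658, all on the minus strand. The other monotonic lower gene with a match was PPP1R15B, which encodes a regulatory subunit of the phosphatase that removes the phosphate of eIF2alpha. A match is a description of letters and not evidence of binding.

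The sterol and fatty acid list was lower at all 3 induced days. Of 8 measured genes, 4 were at least 1 below day 0 at day 3, 5 at day 5 and 4 at day 7, against 12.6%, 2.12% and 2.34% of all named genes, and the median differences were -1.08, -1.07 and -1.10. INSIG1, measured by 1 feature, had ratios of 0.40, -1.34, -1.55 and -2.15, ending 5.85-fold below day 0. SQLE, the squalene epoxidase, was in the sustained lower group with ratios of 0.14, -1.14, -1.29 and -1.11 over 3 features. FADS1, a fatty acid desaturase, had ratios of 0.26, -0.31, -0.85 and -1.25. The sterol enzyme IDI1 had its lowest ratio at day 3, -2.51, and -0.70 at day 7, and SC5D was back at day 0 by day 7 with ratios of -0.06, -1.44, -0.66 and 0.01. LSS, the lanosterol synthase, was the exception above day 0 at each induced day (0.90, 0.60 and 0.43). The list median was also below 0 on the 4 induced arrays of the other KMS12 series, with medians of -0.97 at day 2 and -0.26 at day 4 of 1332b and of -0.54 and -0.79 at days 2 and 4 of 2046. The other sustained lower gene with more than 1 feature was PPP2R5C, a regulatory subunit of protein phosphatase 2A, with ratios of 0.34, -1.14, -0.82 and -1.32. The sterol regulatory element TCACNCCAC was in 0 of the 7 list promoters found and in 239 of 27305 promoters (0.875%).

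**Figure D3:**
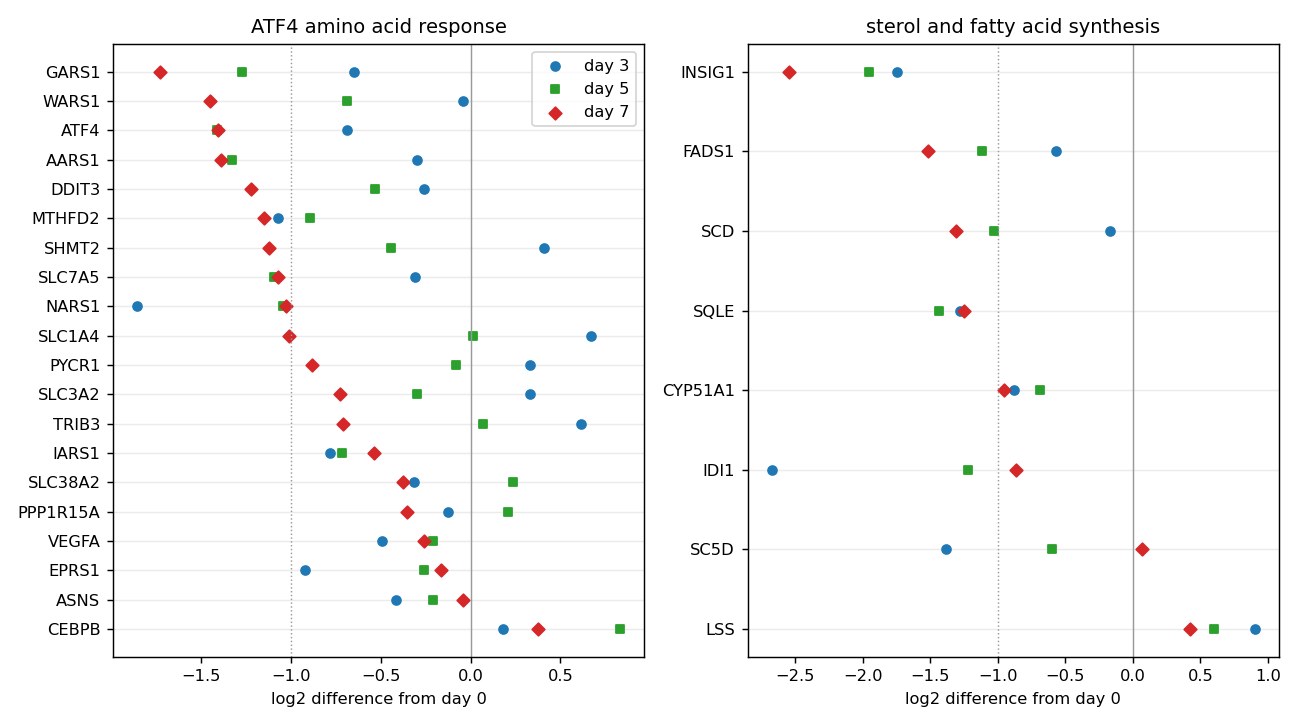
log2 difference from day 0 (x axis) of each measured gene of the ATF4 list (left) and of the sterol and fatty acid list (right) at days 3, 5 and 7. The dotted line marks -1. On the left 10 of 20 genes lie at or below it at day 7, on the right 4 of 8.

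Plasma cell genes were lower on balance and earlier B cell genes higher. Of 15 plasma cell genes, a list that holds the targeted IRF4 itself, 14 were below day 0 at day 7, against 45% of all named genes. The median differences were -0.73, -0.48 and -0.38 at days 3, 5 and 7. These medians were -0.38, -0.22 and -0.36 without subtracting day 0, and -0.32, -0.18 and -0.21 with the sign of day 0 turned. PRDM1, the regulator of plasma cell fate, had ratios of 0.01, -0.20, -0.52 and -0.98 from 1 feature. TNFRSF17, the BCMA receptor, had ratios of -0.06, -0.98, -0.92 and -1.09 over 2 features that differed in size. From day 0, 1 feature was at -1.45, -1.48 and -1.86 and the other at -0.39, -0.24 and -0.20 at days 3, 5 and 7. PIM2, a survival kinase, had ratios of 0.45, -0.28, -0.63 and -1.18 from 1 feature. SDC1 (CD138) differed from day 0 by 0.25, 0.21 and -0.21 at days 3, 5 and 7, and XBP1, a factor for secretory capacity, by -0.05, -0.34 and -0.33. JCHAIN, the joining chain of immunoglobulin, was at -0.98 from day 0 at day 3 and 0.25 at day 7, where 2 of its 3 features lay below day 0 and 1 above it. Of 14 measured earlier B cell genes, 12 were above day 0 at day 3 and 10 at day 7, against 50.9% and 55% of all named genes. Their median differences were 0.61, 0.33 and 0.29 at days 3, 5 and 7. CIITA, the transactivator of MHC class II genes, had ratios of -1.03, 1.24, 0.89 and 0.53. CD37, a B cell tetraspanin, had ratios of -1.78, 0.61, 0.27 and -0.45, and BCL6, the germinal centre repressor, had -0.38, 0.60, 0.48 and 0.37. The B cell genes CD79B and BACH2 had features that disagreed. At day 3 those of CD79B lay between 0.03 and 2.14 from day 0 and those of BACH2 between -0.58 and 0.77. At day 7 both genes had features on either side of day 0. These ran from -0.87 to 1.45 for CD79B and from -1.03 to 0.32 for BACH2.

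The day 0 array was low for many of the genes that lay above it later. For CIITA the day 0 ratio was -1.03 and for CD37 -1.78. With the sign of day 0 turned, the median of the B cell list was 0.05 at day 3, -0.07 at day 5 and -0.35 at day 7. Of the 90 sustained higher units, 84 (93.3%) had a day 0 ratio at or below -0.5, against 13.6% of all units. Without subtracting day 0, there were 4 sustained higher and 3 sustained lower courses, and with the mean of the 3 uninduced KMS12 arrays as baseline 36 and 3. The leading sustained higher genes were CX3CL1, a membrane-bound chemokine with ratios of -0.96, 1.02, 0.31 and 1.16, CIITA, IL6R, the interleukin 6 receptor with ratios of -0.66, 0.75, 0.66 and 0.84, C9orf164 and CD37. CX3CL1 had 1 feature with a day 0 ratio of -1.64 that lay 3.44, 2.20 and 3.55 above it at days 3, 5 and 7. Its other feature lay 0.52, 0.35 and 0.68 above day 0 on these days. C9orf164 had 1 feature with a day 0 ratio of -2.49 that lay 2.87 above it at day 7. Its other feature lay 0.07 above day 0 at day 7. Sustained higher units were above day 0 in 88.7% of the 53 with a value at day 2 of series 2046 (49% of all units) and in 68.9% of the 74 at day 2 of 1332b (52.4% of all). At day 4 the shares were 78.6% in 2046 (49.7% of all) and 55.1% in 1332b (52.8% of all). The day 0 arrays of 2046 and 1332 correlated at 0.51, and most of these units were low on the latter. The 2046 shares are therefore not independent of how the units were chosen. Marker genes of other lineages also lay above day 0 at day 3, where 50.9% of all named genes did: 8 of 10 T cell genes (median 0.44), 4 of 6 myeloid genes (0.29) and 7 of 8 erythroid or stromal genes (0.67). At day 7 these medians were 0.08, 0.09 and 0.37, the T cell and myeloid ones turning below 0 without centring (-0.09 and -0.08). Their part in the B cell result was not tested.

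MHC class II genes, which present antigen, were on balance above day 0 at day 3 and below it at day 7. Of the 10 measured, a list that holds CIITA itself, 8 were above day 0 at day 3 (median difference 0.61) and 8 were below it at day 7 (median -0.34). Of all named genes, 50.9% were above day 0 at day 3 and 45% below it at day 7. Each of the 10 was lower at day 7 than at day 5, against 1091 of all 2219 named genes. HLA-DQA1, over 5 features, had ratios of 0.03, 0.78, 0.15 and -0.39, and CD74, the invariant chain, had 0.18, 0.81, -0.02 and -0.54 over 8 features. CIITA was 1.56 above its day 0 ratio at day 7. With the sign of day 0 turned it was at -0.50, beside a list median of -0.22. Of the MHC class I list, all 6 genes were below day 0 at day 7 (median -0.50), against 45% of all named genes. HLA genes share sequence, so features of one may read others.

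MYC and growth genes had no common course. MYC, the growth regulator, had ratios of 0.58, 0.04, -0.05 and 0.15 over 3 features, a difference of -0.54, -0.63 and -0.43. Its dimerisation partner MAX was monotonic higher, with ratios of -0.39, -0.09, 0.31 and 0.84 over 2 features. Of the 22 measured genes of the list, 17 were above day 0 at day 7, against 55% of all named genes, with a median of 0.22 (0.05 without centring). Among the 17 were ODC1, the first enzyme of polyamine synthesis, at 0.68 and LDHA, lactate dehydrogenase, at 1.09. The translation initiation factor EIF4G1 reached 1.38 from 1 feature, while SHMT2 was at -1.12. In the other KMS12 series the list's median was 0.02 and -0.20 at days 2 and 4 of 1332b. It was -0.41 and -0.37 at days 2 and 4 of 2046. Over all named genes these medians lay between -0.02 and 0.03.

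Genes of G2/M and mitosis were on balance lower at day 3. Of 31 measured, 11 were at least 1 below day 0 at day 3 and 0 at days 5 and 7, against 12.6%, 2.12% and 2.34% of all named genes, with medians of -0.40, -0.24 and 0.06. CENPF, a kinetochore protein, had ratios of 0.08, -1.48, -0.62 and 0.20 over 5 features, and TOP2A, the DNA topoisomerase of dividing cells, had 0.44, -1.56, -0.33 and 0.11. HMMR, which acts at the mitotic spindle, had 0.30, -1.71, -0.51 and 0.63. CDK1, the mitotic kinase, had -0.10, -0.96, 0.12 and 0.66. From the G1/S list, CDC6, a replication licensing factor, was -0.55 from day 0 at day 3 and 0.81 from it at day 7. The genes named so far were thus low at day 3 and, apart from TOP2A (-0.33), above day 0 on the last array. The features of CENPF lay between -0.38 and 0.70 from day 0 there. Other members of the list had other courses, and of the 31, 13 were below day 0 at day 7 and 18 above it. CDC25B was at -0.07, -0.40 and -0.79 from day 0 and BIRC5 at -0.21, -0.44 and -0.77, each from 1 feature. The 4 features of AURKB lay between 0.03 and 1.33 above day 0 at day 3.

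Transient lower courses led the day 3 array: in 292 of 304 units day 3 was the larger difference, and 53 units were at least 2 below day 0 there. The median difference of the group was -1.44 at day 3, -0.44 at day 5 and -0.05 at day 7. ATRX, a chromatin remodeller, had ratios of 0.09, -5.12, -0.38 and 0.55, but its 2 features lay at -7.00 and -3.42 on day 3. SEC62, a protein of the endoplasmic reticulum translocon, had ratios of 0.41, -4.45, -0.51 and 0.56, with features at -7.88 and -1.83. The features thus differed widely in size while sharing the direction. RIOK2, CEBPZ and USP1 were between -3.62 and -3.07 at day 3 and within 0.41 of day 0 at day 7.

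The same units were low at day 2 of the separate series 1332b and not at its day 4. That day 2 array also had the widest spread of its series (standard deviation 0.79, against 0.24 at day 0 and 0.41 at day 4). Of the 298 with a value at day 2, 205 (68.8%) were at least 1 below that series' day 0, against 504 of all 3548 units (14.2%), with a median of -1.29. At day 4 of 1332b 1 of 302 was, against 0.869% of all units, with a median of 0.25. In series 2046, 42 of 285 (14.7%) were at least 1 below at day 2 and 25 of 281 (8.9%) at day 4, against 2.3% and 2.4% of all units, with medians of -0.55 and -0.42. The doses were alike and the days were not, so these values are set side by side. When day 3 was left out, an alternative chosen after seeing the data, 28 transient lower and 29 transient higher units remained from day 5 alone.

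**Figure D4:**
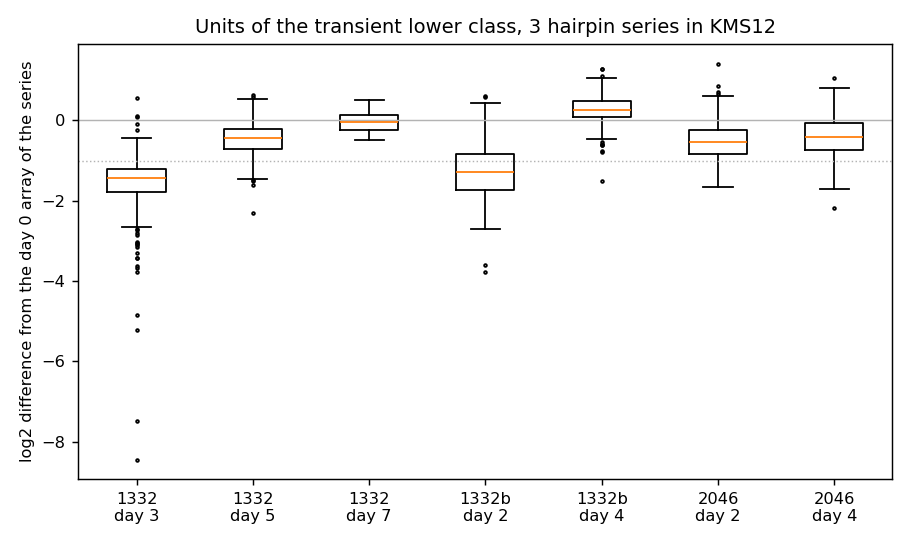
Boxplots (median, quartiles, whiskers to 1.5 interquartile ranges, points beyond) of the log2 difference from each series' own day 0 (y axis) for the transient lower units, in 3 KMS12 series (x axis). The units were chosen on the first 3 boxes; medians are -1.44, -0.44, -0.05, -1.29, 0.25, -0.55 and -0.42 from left to right.

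Transient higher courses included IFITM1, an interferon-induced membrane protein, with ratios of 0.03, 1.34, 0.72 and -0.04 over 6 features, and MAPKAPK2, a kinase of the p38 pathway, with -0.12, 0.95, 0.59 and 0.28. The 18 measured interferon genes had median differences of 0.50, 0.12 (-0.02 without centring) and -0.02, with ISG15 at 1.00 on day 3 and 0.17 on day 7. Of the transient higher units, 86.2% were above day 0 at day 2 of 1332b and 92.7% at day 2 of 2046, against 52.4% and 49% of all units. At day 4 the shares were 55.3% and 78%, against 52.8% and 49.7%. Of the 97 units, 53 (54.6%) had a series 1332 day 0 ratio at or below -0.5, against 13.6% of all units. The day 0 arrays of 2046 and 1332 correlated at 0.51, so the 2046 shares are not independent of how the units were chosen.

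Monotonic higher and late courses were small groups. Of the 65 monotonic higher units, 42 (64.6%) had a day 0 ratio at or below -0.5, against 13.6% of all units. POLE3, a subunit of DNA polymerase epsilon, had ratios of -0.99, -0.72, -0.13 and 0.92, a 3.75-fold difference at day 7, and LILRB1, an inhibitory leukocyte receptor, had -0.50, 0.21, 0.39 and 1.05, with its 2 features at 0.72 and 2.38 above day 0. SPTB, the beta spectrin, had ratios of -0.16, 0.59, 0.75 and 1.31. MTF1, the metal-responsive transcription factor, and RGS1, a regulator of G protein signalling, were both monotonic and late, with day 7 differences of 1.28 and 1.27 and day 3 differences of 0.20 and 0.09. Late higher courses also included DMTF1 (ratios -0.78, -0.35, -0.77 and 0.66), BARD1, the partner of BRCA1 (-0.70, -0.67, -0.60 and 0.47), and the noncoding RNA MALAT1 (-0.85, -1.04, -0.43 and 0.27). For these genes the small differences at days 3 and 5 are means of features that disagreed. The 2 features of BARD1 were at 0.95 and -0.89 from day 0 at day 3 and at 1.78 and -1.58 at day 5. Those of DMTF1 were at -1.12 and 1.97 at day 3 and at -1.20 and 1.22 at day 5. The 4 features of MALAT1 ran from -1.03 to 0.67 at day 3, and RGS1 had -0.28 and 0.47. All features of the 4 genes lay above day 0 at day 7. Among the 9 named late lower genes were SHMT2 and SELPLG, the P-selectin ligand, with ratios of 0.03, -0.07, -0.06 and -1.26. The 5 features of SHMT2 lay between -1.26 and -0.81 from day 0 at day 7, and the 2 of SELPLG were at -0.66 and 0.48 at day 5 and at -1.69 and -0.89 at day 7. Of the 20 late higher units, 9 had a day 0 ratio at or below -0.5. Other late higher genes, each from 1 feature, were CIP2A (difference 1.67 at day 7), the vitamin D receptor VDR (1.19), LDHA (1.09) and the haem oxygenase HMOX1 (1.06).

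**Figure D5:**
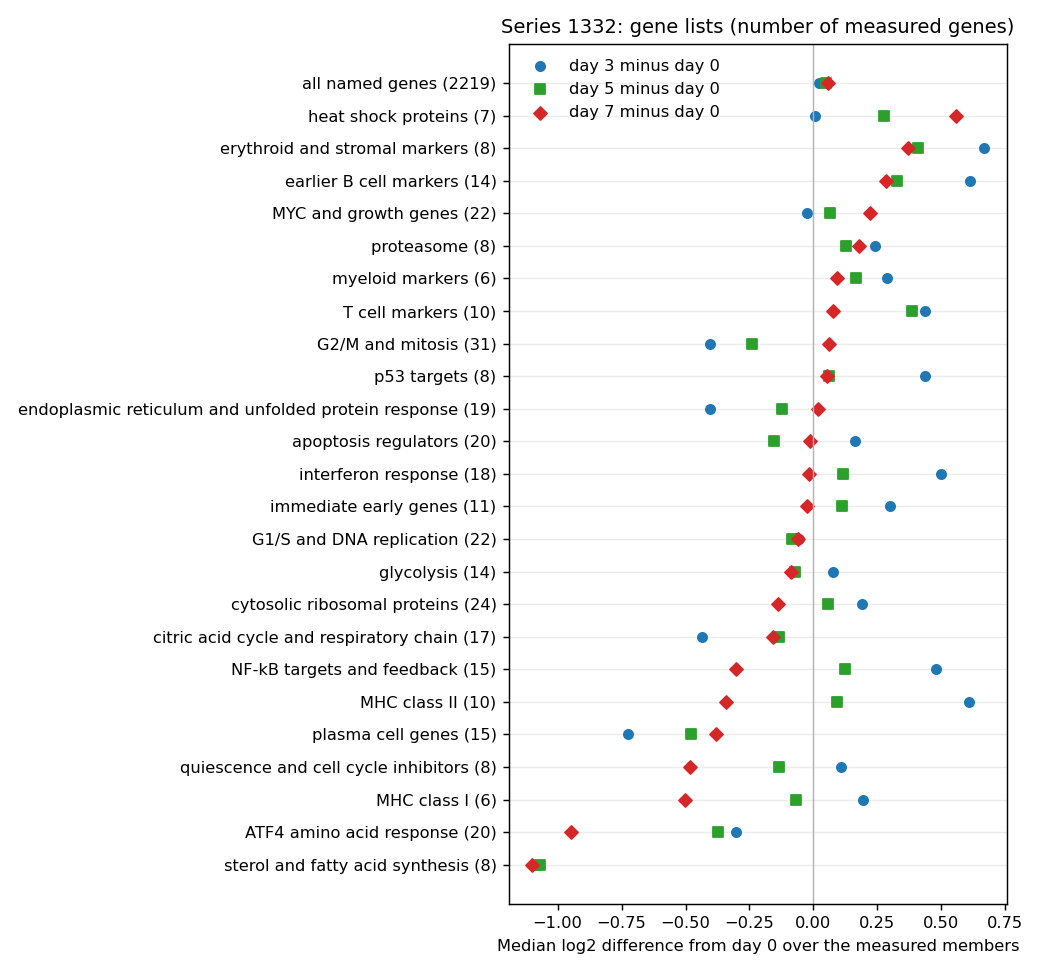
Median log2 difference from day 0 (x axis) of each gene list at days 3, 5 and 7, lists ordered by the day 7 value with the number of measured genes in brackets. The sterol and ATF4 lists lie lowest at day 7, at -1.10 and -0.95, and all named genes lie at 0.06.

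A further 259 features had values at days 3, 5 and 7 and none at day 0, so no difference could be taken. Of these, 3 had a ratio of at least 1 on all 3 days, among them CCR2 (1.06, 1.04 and 1.08), a chemokine receptor, and FOS (1.09, 1.76 and 2.11), an immediate early gene, and 0 were at or below -1 on all 3. FOS therefore had its highest ratio at day 7.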

How the data were processed

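Series 1332 comprised 4 two-colour Lymphochip arrays, whose RNA was extracted with Trizol per the labels' protocols. The authors deposited log2 ratios (base inferred from the range of values, not stated in the labels), Cy5 IRF4 hairpin over Cy3 control per the labels; how background, normalization and blank spots were handled is not stated there. Intensities were not used here, so brightness-dependent dye bias could not be fitted. Gene symbols came from the supplied platform annotation: 10169 features had 1 symbol, 4 several and 5073 none, and 10128 matched a RefSeq gene table used for names. Features with values on all 4 arrays were kept, each array was centred on its median, features of a gene were averaged, and day 0 was subtracted. Other series were subtracted feature by feature from their own day 0. The trend used limma 3.58.1 in R 4.3.3 (two-sided, Benjamini-Hochberg over 3662 units); the script was tested on simulated data. Members, lists and rules were chosen with earlier results of these data known. Named genes are IRF4; up to 6 per course kind and direction with the largest defining difference among genes with at least 2 features on the same side; and, for each of 24 gene lists, the 2 genes with most features and the 2 with the largest day 7 difference, with the plasma cell, sterol and MYC lists named freely. Genes named outside this rule (most ATF4 list members, BCL6, CDK1, TOP2A, HMMR, ENO3, SOCS5, CIP2A, VDR, HMOX1, FOS, CCR2, PPP1R15B and those of the closing observations) were chosen after their values were seen. A Y-linked gene and 1 other gene that the rule named are not reported here. Alternatives tried are given in the closing section.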

Additional observations from a re-analysis of the deposited data

Results flagged for a closer look

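Each item below lay on one side of day 0 at all 3 induced days of series 1332 and on the other side at both induced days of another KMS12 series; the difference between the series was not tested, and the days differ. The value given is the mean difference over the induced days. The heat shock list had 0.28 in series 1332, and its mean was -0.10 in 1332b and -0.28 in 2046. The proteasome list had 0.181, against -0.29 in 2046. LILRB1 had 1.05 against -0.66 in 2046, MTF1 0.61 against -0.48 in 1332b, DDIT3 -0.67 against 0.18 in 2046 and CX3CL1 1.79 against -0.20 in 1332b. For LILRB1 in 2046, and for CX3CL1 at day 2 of 1332b, only 1 of the 2 features gave a difference, so the feature sets differ. Among late genes, DMTF1 had 0.63 against -0.20, BARD1 0.43 against -0.26 and SELPLG -0.49 against 0.22, each in 2046. Each of these 3 rests on the mean of 2 features that lay on opposite sides of day 0 at day 3 and day 5 of series 1332. No group held 4 or more arrays, so no array was tested for standing apart within its group.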

How the results depend on the processing

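The main counts were 701, 297 and 335 units past a size of 1 at days 3, 5 and 7, and 96 monotonic, 101 sustained, 401 transient and 42 late courses. Without subtracting day 0, the counts at days 3, 5 and 7 were 414, 98 and 191, monotonic courses numbered 47 and sustained courses 7, IRF4 was at -1.19, -0.63 and -0.69, and CD37 turned to -0.45 at day 7. With the mean of 3 uninduced arrays as baseline, day 5 gave 171 and sustained courses 39, and IRF4 was at -1.34, -0.78 and -0.85. With the sign of the day 0 array turned, day 7 gave 530, monotonic courses 199 and late courses 66, and IRF4 was at -0.92, -0.36 and -0.42. Under that setting, values at day 3 reversed for C9orf164 (-0.48), CD37 (-1.18), VAC14 (-0.52), F2 (-0.99) and NR1D1 (-0.29). At day 5 they reversed for CX3CL1 (-0.64), CIITA (-0.14), C9orf164 (-0.54), CD37 (-1.51), VAC14 (-0.71) and TRAK1 (-0.75). At day 7 they reversed for POLE3 (-0.065), RGS1 (-0.017), CIITA (-0.50), C9orf164 (-0.68), CD37 (-2.23), DMTF1 (-0.12), BARD1 (-0.23) and MALAT1 (-0.58). A size of 1.5 gave 305, 83 and 91 units and 32 monotonic, 26 sustained, 158 transient and 2 late courses, and a near size of 0.3 gave 8 late courses. Genes with 2 or more features gave 160, 31 and 43, and 20 monotonic, 7 sustained, 111 transient and 8 late courses; fewer genes were tested there. Without centring, IRF4 was at -1.61, -1.04 and -1.13; with the median of features it was at -1.01 at day 5; with features on at least 10 of 13 arrays at -1.34 and -0.79 at days 3 and 5, and C9orf164 turned to -0.0315 at day 5. With day 3 left out, chosen after seeing the data, transient courses numbered 57. The limma trend passed 210 units on the induced arrays only. It passed 0 with the rank of the day, without centring, with the median of features and with features on at least 10 of 13 arrays. It was not run with the sign of day 0 turned or with the mean of 3 uninduced arrays as baseline. IRF4 stayed below day 0 under each alternative. The cause of these shifts was not tested. No paired analysis was possible because each day has 1 array. A single array a day limits the precision of every value, and signal over background is not known.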

Other observations

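Gene lists not described above are given as median differences from day 0 at days 3, 5 and 7. Genes of the endoplasmic reticulum and unfolded protein response had -0.40, -0.12 and 0.02 over 19 genes, the last turning to -0.15 without centring. Within that list, members parted at day 7. The chaperones CALR and PDIA4 lay at 0.69 and 0.82 and the cochaperone DNAJC3 at 0.82, whereas DNAJB9 lay at -1.05 and the stress sensor ATF6 at -0.87. The heat shock list had 0.01, 0.28 and 0.56 over 7 genes (-0.14 at day 3 without centring), and HSP90AA1, the stress-inducible cytosolic HSP90, had ratios of 0.34, -2.33, -0.38 and 0.92.

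Citric acid cycle and respiratory chain genes had -0.44, -0.14 and -0.16 over 17 genes. IDH1, the cytosolic isocitrate dehydrogenase, was at -1.07, -0.86 and -0.96, while CYCS, cytochrome c, was at -1.39, -0.40 and 0.34. Among apoptosis genes (0.16, -0.15 and -0.01 over 20 genes), BCL2L1, an anti-apoptotic relative of BCL2, was at 0.37, 0.73 and 0.75, PMAIP1, the BH3-only protein NOXA, at -1.03, -0.60 and -0.67, and MCL1 at -0.74, -0.48 and -0.36. NF-kB targets and feedback genes had 0.48, 0.12 and -0.30 over 15 genes, the day 5 value turning to -0.02 without centring. Lymphotoxin beta (LTB) was at 2.08 at day 5 and 1.68 at day 7, ICAM1 at 1.47, 1.03 and 1.21, and the feedback inhibitor TNFAIP3 at -0.54, -0.88 and -0.74 over 6 features.

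For the remaining lists, medians were -0.06, -0.09 and -0.06 for G1/S and replication (22 genes), 0.08, -0.07 and -0.09 for glycolysis (14), 0.24, 0.13 and 0.18 for the proteasome (8) and 0.19, 0.06 and -0.14 for ribosomal proteins (24), whose cDNAs can read related copies. They were 0.44, 0.06 and 0.05 for p53 targets (8), 0.11, -0.13 and -0.48 for quiescence genes (8), and 0.30, 0.11 and -0.02 for immediate early genes (11). Without centring, medians turned sign for glycolysis and quiescence genes at day 3, for proteasome, ribosomal protein and immediate early genes at day 5, and for p53 targets at days 5 and 7.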
